A study of Mus musculus with 6 samples.

Results

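The extracellular matrix and fibroblast genes described here are collagens, matrix glycoproteins and proteoglycans, enzymes that build or cut the matrix, their inhibitors, receptors of fibroblasts, contractile genes and insulin-like growth factor (IGF) binding proteins. They were followed in RNA-Seq libraries of regulatory T cells (Tregs) sorted from mouse melanoma tumors. Members were chosen by name from a list of 38 genes, and 34 of them had a row in a table of 12153 genes. Mgp, Loxl1, Loxl2 and Tagln had no row, and the table holds only genes that passed the authors' filter on low CPM. The list was drawn up with genotype differences of these libraries already known. The genotype differences below are therefore a description of these genes and support nothing about the list as a whole.

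B16.F10 melanoma cells, a mouse tumor line, were implanted into Nr3c1-flox mice, which were the control, and into Nr3c1-flox Foxp3-YFP/Cre mice, called Nr3c1 Foxp3-Cre mice below. Both groups carried floxed alleles of Nr3c1, the gene of the glucocorticoid receptor (GR), and tumors were taken on day 15 after inoculation. Each group had 3 libraries, made from total RNA with an ultra-low-input cDNA kit, and the number of animals behind a library is not given in the sources used here. Whether the libraries of a group came from separate animals is not stated either, so p-values measure only the spread between libraries. Cre was expressed from the Foxp3 promoter, and Foxp3 is a transcription factor of Tregs, so that fibroblasts of both groups are expected to keep Nr3c1. The labels describe a sort on CD45, CD4 and CD25 after tumor cells were depleted on a density gradient. The study's methods describe a sort of CD45.2+ CD4+ cells by Foxp3-YFP, with a dump channel against myeloid cells, B cells, NK cells and other T cells. The labels name no YFP allele for the control mice, so a difference in the sort and the genotype cannot be told apart.

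Fibrillar collagens are made mainly by fibroblasts. Their chains are folded in the endoplasmic reticulum with the help of a dedicated chaperone, trimmed outside the cell and crosslinked by lysyl oxidase. Tumor cells and endothelial cells also make matrix, in particular basement membrane collagens and matricellular proteins, and T cells are not known as a source of fibrillar collagen. In bulk RNA, fewer cells of a type and less RNA per cell cannot be told apart.

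Values are log2 CPM, the reads of a gene scaled to the total of its library, after quantile normalization by the authors, and they are given below in the order of replicates 1, 2 and 3 of each group. Read depth is unknown. Nr3c1 was at 7.15, 7.59 and 6.88 log2 CPM in control Tregs and at 6.14, 5.45 and 5.90 in Nr3c1 Foxp3-Cre Tregs, and Tsc22d3, a GR target gene, was at 7.78, 8.31 and 7.69 in control Tregs and at 6.45, 6.28 and 6.35 in Nr3c1 Foxp3-Cre Tregs. Both genes were lower in each Nr3c1 Foxp3-Cre library than in each control library, as the labels have it. The 8 Treg markers were all measured, with means per library of 8.02 to 8.62 log2 CPM. The 10 melanoma markers were also all measured, with means of 7.41 to 8.81, and Tyrp1 and Dct, enzymes of pigment synthesis, were among them. Of 12 macrophage and monocyte markers all 12 had a row, with means of 3.61 to 4.82. All 6 libraries thus held RNA of melanoma and myeloid genes.

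The label of fibroblast genes was checked against 30 other fibroblast genes that are not members. Of these, 15 had a row. Dpt, Pi16, Fap, Twist1, Prrx1 and Tcf21, which mark fibroblasts, had none. Those with a row differed in level over the 6 libraries. Aebp1 ran from 5.29 to 6.91 log2 CPM, Fbln1 from 4.16 to 5.58 and Ddr2 from 3.54 to 5.27, while Mxra8 ran from 0.80 to 1.95. The mean of the 15 overlapped between the groups, at 3.58, 2.70 and 3.21 log2 CPM in control Tregs and 2.18, 3.08 and 2.45 in Nr3c1 Foxp3-Cre Tregs. Pdgfra, the receptor that defines many fibroblasts, did not exceed 3.11 CPM in any library. These values point both ways. The genes are therefore called matrix genes below, with no statement that fibroblasts were present or absent.

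The genotype comparison was read first for the fibrillar collagens, and it showed lower values in Nr3c1 Foxp3-Cre Tregs for each of the 5 chains. Col1a1 (ENSMUSG00000001506.10, chromosome 11 of mm10 from 94936224 to 94953042), a chain of type I collagen, was at 6.24, 5.07 and 5.80 log2 CPM in control Tregs and at 3.70, 4.25 and 3.56 in Nr3c1 Foxp3-Cre Tregs. Its groups did not overlap, and the log2 fold change of Nr3c1 Foxp3-Cre over control Tregs was -1.87 (SE 0.29, limma adjusted p = 0.12), or 3.65-fold lower. Col1a2 (ENSMUSG00000029661.16, chromosome 6 of mm10 from 4504814 to 4541544), its partner chain, was at 6.54, 5.22 and 6.28 log2 CPM in control Tregs and at 4.11, 4.67 and 4.19 in Nr3c1 Foxp3-Cre Tregs. The groups again did not overlap, with a log2 fold change of -1.69 (SE 0.31, limma adjusted p = 0.271). The difference between Col1a1 and Col1a2 within a library was nearly the same throughout, at -0.30, -0.15 and -0.48 in control Tregs and -0.41, -0.41 and -0.63 in Nr3c1 Foxp3-Cre Tregs on the log2 scale.

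Col3a1 (ENSMUSG00000026043.18, chromosome 1 of mm10 from 45311538 to 45349706), the chain of type III collagen, was at 8.01, 6.55 and 7.55 log2 CPM in control Tregs and at 5.35, 6.74 and 5.80 in Nr3c1 Foxp3-Cre Tregs. Control replicate 2 lay below Nr3c1 Foxp3-Cre replicate 2, so the groups overlapped, and the log2 fold change was -1.41 (SE 0.40, limma adjusted p = 1.0). Col5a1, a type V chain that takes part in starting fibrils, was at 3.11, 2.47 and 2.64 log2 CPM in control Tregs and at 1.27, -0.40 and 0.58 in Nr3c1 Foxp3-Cre Tregs, without overlap and with a log2 fold change of -2.26 (SE 0.45). Col5a2, the other type V chain, was at 3.51, 2.12 and 3.11 log2 CPM in control Tregs and at 1.73, 2.37 and 1.94 in Nr3c1 Foxp3-Cre Tregs. Here control replicate 2 and Nr3c1 Foxp3-Cre replicate 2 crossed, and the log2 fold change was -0.90 (SE 0.38). The mean of the 5 chains was 5.48, 4.29 and 5.08 log2 CPM in control Tregs and 3.23, 3.52 and 3.21 in Nr3c1 Foxp3-Cre Tregs. Macrophage marker means over the same libraries were 4.82, 4.22 and 4.56 log2 CPM in control Tregs and 3.61, 4.35 and 3.89 in Nr3c1 Foxp3-Cre Tregs. Their groups overlapped, with 12 of 12 markers lower and 0 past an unadjusted p of 0.05. Over the whole table, 6136 of 12153 genes were lower, and 1.65% were lower past that p. The part of macrophage RNA in the collagen difference was not tested. As deviations from the group means over the 6 libraries, the mean of the 5 chains had an r of 0.79 with the macrophage marker mean, 0.86 with the melanoma marker mean and 0.85 with the other fibroblast genes. As raw values these were 0.89, 0.41 and 0.84. Col5a1 did not share this, with deviations at -0.51, -0.056 and -0.43 in the same order.

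The sequence before the RefSeq start site is shown for a pair of fibrillar collagen genes that had lower means in Nr3c1 Foxp3-Cre Tregs and a window in the RefSeq table. Each run is the 250 bases upstream of the RefSeq start on GRCm38.p6, 5′ to 3′ on the gene's strand, with GGGCGG and TATAAA in capitals. The Col1a2 window is chr6:4505368-4505617 on the plus strand and the Col3a1 window is chr1:45311288-45311537 on the plus strand. The RefSeq start of Col1a2 lies downstream of the GENCODE M21 gene start given above, so this window is upstream of the RefSeq start but inside the GENCODE gene.
Col1a2: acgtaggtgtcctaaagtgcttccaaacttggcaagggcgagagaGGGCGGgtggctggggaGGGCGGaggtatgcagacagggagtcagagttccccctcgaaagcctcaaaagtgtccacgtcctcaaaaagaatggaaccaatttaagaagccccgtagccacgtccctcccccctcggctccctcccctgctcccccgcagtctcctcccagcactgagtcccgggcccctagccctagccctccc
Col3a1: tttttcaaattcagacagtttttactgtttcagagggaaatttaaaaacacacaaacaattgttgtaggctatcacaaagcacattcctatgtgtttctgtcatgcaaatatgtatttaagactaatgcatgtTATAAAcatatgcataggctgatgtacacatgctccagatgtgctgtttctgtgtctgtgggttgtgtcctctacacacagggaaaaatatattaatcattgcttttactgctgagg
The Col1a2 window held GGGCGG at 2 positions, no TATAAA, and 62.0% G and C. The Col3a1 window held TATAAA at 1 position, no match to the other motif, and 35.2% G and C. A match is a description of letters and says nothing of binding.

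Among the collagens of networks and beaded filaments, the type VI chains had lower means in Nr3c1 Foxp3-Cre Tregs and the type IV chains had similar ones. Col6a2 (ENSMUSG00000020241.13, chromosome 10 of mm10 from 76595762 to 76623630) was at 2.96, 2.66 and 2.95 log2 CPM in control Tregs and at 1.34, 0.47 and 0.47 in Nr3c1 Foxp3-Cre Tregs. The groups lay apart, and the log2 fold change was -2.10 (SE 0.35, limma adjusted p = 0.141). Col6a1, the neighbouring type VI gene on chromosome 10, was at 4.40, 2.81 and 3.84 log2 CPM in control Tregs and at 2.31, 1.88 and 2.57 in Nr3c1 Foxp3-Cre Tregs. Its groups did not overlap either, with a log2 fold change of -1.43 (SE 0.39). Col6a3 ran from 1.99 to 3.62 log2 CPM in control Tregs and from 0.11 to 2.18 in Nr3c1 Foxp3-Cre Tregs, with overlap and a log2 fold change of -1.27 (SE 0.59). Without Nr3c1 Foxp3-Cre replicate 2, the lowest library, it was -0.64, and without control replicate 1, the highest, it was -0.78.

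Col4a1 and Col4a2 encode the main chains of basement membrane collagen and start next to each other on opposite strands of chromosome 8. Col4a1 was at 4.05, 3.67 and 3.93 log2 CPM in control Tregs and at 5.16, 3.39 and 2.78 in Nr3c1 Foxp3-Cre Tregs. The highest and the lowest value both came from Nr3c1 Foxp3-Cre libraries, and the log2 fold change of -0.11 (SE 0.50) had an interval from -1.24 to 1.02. Without Nr3c1 Foxp3-Cre replicate 3 it was 0.39, and without replicate 1 of that group it was -0.80. Col4a2 ran from 2.98 to 4.32 in control Tregs and from 3.07 to 4.44 in Nr3c1 Foxp3-Cre Tregs, with a log2 fold change of 0.10 (SE 0.44). For neither gene did the genotype difference exceed the spread between libraries.

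Log2 fold changes of the glycoproteins and proteoglycans of the matrix ran from -1.88 for Postn to -0.059 for Sparc. Fbn1, which forms microfibrils, was at 2.55, 1.76 and 1.77 log2 CPM in control Tregs and at 1.11, 0.56 and 0.29 in Nr3c1 Foxp3-Cre Tregs. Fbln2, a fibulin that binds them, was at 4.01, 3.09 and 3.44 log2 CPM in control Tregs and at 2.60, 1.79 and 1.91 in Nr3c1 Foxp3-Cre Tregs. Thbs2, a thrombospondin, was at 4.74, 3.55 and 3.58 log2 CPM in control Tregs and at 1.79, 3.20 and 1.84 in Nr3c1 Foxp3-Cre Tregs. In all of these the groups did not overlap, and the log2 fold changes were -1.38 (SE 0.39), -1.41 (SE 0.33) and -1.68 (SE 0.45).

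Postn, the matricellular protein periostin, was at 4.45, 3.59 and 4.04 log2 CPM in control Tregs and at 3.04, -0.065 and 3.45 in Nr3c1 Foxp3-Cre Tregs. The groups did not overlap, but Nr3c1 Foxp3-Cre replicate 2 lay about 3 log2 units below the other libraries of its group. The log2 fold change was -1.88 (SE 0.77) with all libraries and -0.78 without that library, while leaving out replicate 3 of that group gave -2.54. Bgn, the small proteoglycan biglycan, was at 3.51, 1.84 and 3.21 log2 CPM in control Tregs and at 1.94, 1.22 and 1.12 in Nr3c1 Foxp3-Cre Tregs. Control replicate 2 lay just below Nr3c1 Foxp3-Cre replicate 1, and the log2 fold change was -1.43 (SE 0.46). Fstl1, a secreted follistatin-like glycoprotein, was at 4.14, 2.87 and 3.53 log2 CPM in control Tregs and at 2.59, 3.08 and 2.56 in Nr3c1 Foxp3-Cre Tregs. Overlap was seen, with a log2 fold change of -0.77 (SE 0.33).

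Decorin and lumican, from the same proteoglycan family as biglycan, gave a different picture. Dcn ran from 4.09 to 4.99 log2 CPM in control Tregs and from 2.01 to 4.44 in Nr3c1 Foxp3-Cre Tregs. A log2 fold change of -1.01 (SE 0.54) was found, and without Nr3c1 Foxp3-Cre replicate 1, the lowest library, it was -0.28. Lum ran from 2.15 to 2.77 in control Tregs and from 0.51 to 2.46 in Nr3c1 Foxp3-Cre Tregs, with a log2 fold change of -0.75 (SE 0.49) that was -0.16 without the same library. Postn was thus low in Nr3c1 Foxp3-Cre replicate 2, and Dcn and Lum were low in Nr3c1 Foxp3-Cre replicate 1.

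Sparc, a collagen-binding protein that melanoma cells also make, was at 7.41, 6.52 and 6.72 log2 CPM in control Tregs and at 7.08, 7.29 and 6.10 in Nr3c1 Foxp3-Cre Tregs. The groups covered each other, and the log2 fold change of -0.059 (SE 0.31) had an interval from -0.76 to 0.64. Fn1, fibronectin, ran from 4.27 to 5.26 in control Tregs and from 4.14 to 4.88 in Nr3c1 Foxp3-Cre Tregs, with a log2 fold change of -0.21 (SE 0.28). Thbs1, the other thrombospondin, ran from 3.18 to 4.36 and from 2.55 to 3.98, with a log2 fold change of -0.83 (SE 0.42) that was -0.18 with sample quality weights. Both sets of libraries overlapped.

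Enzymes that process collagen differed widely from each other. Lox (ENSMUSG00000024529.14, chromosome 18 of mm10 from 52516067 to 52529867), lysyl oxidase, which crosslinks collagen and elastin, was at 3.23, 2.30 and 2.92 log2 CPM in control Tregs and at 0.41, 0.88 and 0.31 in Nr3c1 Foxp3-Cre Tregs. No Nr3c1 Foxp3-Cre library reached the lowest control value, and the log2 fold change of -2.28 (SE 0.36, limma adjusted p = 0.12), or 4.86-fold lower, was the largest among the 34 members. Mmp2, a gelatinase, was at 2.99, 2.37 and 2.67 log2 CPM in control Tregs and at 1.0, 1.82 and 1.12 in Nr3c1 Foxp3-Cre Tregs, without overlap and with a log2 fold change of -1.36 (SE 0.34). Its membrane-anchored activator did not follow it.

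Mmp14, that activator, was at 6.24, 5.42 and 5.77 log2 CPM in control Tregs and at 5.87, 6.16 and 5.08 in Nr3c1 Foxp3-Cre Tregs. Pcolce, which speeds the trimming of procollagen, was at 5.69, 4.49 and 4.99 log2 CPM in control Tregs and at 4.92, 5.39 and 4.62 in Nr3c1 Foxp3-Cre Tregs. Serpinh1 (ENSMUSG00000070436.12, chromosome 7 of mm10 from 99345376 to 99353239), the collagen chaperone HSP47, was at 8.44, 6.95 and 8.01 log2 CPM in control Tregs and at 7.67, 8.38 and 6.90 in Nr3c1 Foxp3-Cre Tregs. In these genes the low libraries were control replicate 2 and Nr3c1 Foxp3-Cre replicate 3, so that the groups covered each other. The log2 fold changes were -0.11 (SE 0.28), -0.08 (SE 0.30) and -0.15 (SE 0.41), and the interval for Serpinh1 ran from -1.08 to 0.78. Per kilobase of the longest coding transcript, Serpinh1 had the highest level of the members, at 6.61 log2 CPM per kilobase in control Tregs and 6.47 in Nr3c1 Foxp3-Cre Tregs. On the same scale Col1a1 was at 3.14 and 1.27, and Fbn1 had the lowest control level at -1.56.

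The windows upstream of Serpinh1 and Mmp14 are shown because these genes had no genotype difference beyond their spread, unlike the type I collagen genes. They are chr7:99353240-99353489 on the minus strand and chr14:54431348-54431597 on the plus strand, from RefSeq on GRCm38.p6, with the same letters in capitals.
Serpinh1: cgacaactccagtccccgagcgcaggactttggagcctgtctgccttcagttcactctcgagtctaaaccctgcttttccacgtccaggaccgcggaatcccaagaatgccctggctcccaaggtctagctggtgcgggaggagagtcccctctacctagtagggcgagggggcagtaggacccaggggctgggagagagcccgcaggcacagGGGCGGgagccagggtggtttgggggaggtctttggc
Mmp14: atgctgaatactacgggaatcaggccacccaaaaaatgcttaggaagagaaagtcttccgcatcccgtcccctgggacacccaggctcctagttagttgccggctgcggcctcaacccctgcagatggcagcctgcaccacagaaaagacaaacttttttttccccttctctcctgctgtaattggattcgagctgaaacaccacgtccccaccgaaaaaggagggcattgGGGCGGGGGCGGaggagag
The Serpinh1 window held GGGCGG at 1 position and the Mmp14 window at 2 adjoining positions, with 63.6% and 55.2% G and C, and neither held TATAAA. Of the members, 24 had a window in the RefSeq table, and each motif was searched on both strands of those and of the windows of 9334 measured genes. GGGCGG was in 58.3% of the members and 64.0% of the measured genes, CCAAT in 25.0% and 40.9%, and TATAAA in 16.7% and 7.80%. AGAACA, an arm of the palindromic GR element, was in 12.5% and 12.9%. The whole element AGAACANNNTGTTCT, which contains that arm, was in 0 members and in 0.0107% of measured genes.

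The inhibitors of metalloproteinases among the members, Timp2 and Timp3, did not share the lower values of the collagens. Timp1, an inhibitor that is not a member, was at 2.44, 1.74 and 1.82 log2 CPM in control Tregs. In Nr3c1 Foxp3-Cre Tregs it was at 1.48, 1.42 and 0.66, lower without overlap, with a log2 fold change of -0.81 (SE 0.37). Timp2, which inhibits metalloproteinases and also takes part in activating Mmp2, was at 7.16, 7.07 and 7.12 log2 CPM in control Tregs and at 7.36, 7.46 and 6.98 in Nr3c1 Foxp3-Cre Tregs. Overlap was seen here too, and the log2 fold change was 0.15 (SE 0.13). Timp3, an inhibitor held in the matrix, was at 2.54, 2.28 and 2.35 log2 CPM in control Tregs and at 2.85, 2.81 and 2.77 in Nr3c1 Foxp3-Cre Tregs. It was the only member with each Nr3c1 Foxp3-Cre library above each control library, and its log2 fold change of 0.42 (SE 0.24) had an interval from -0.12 to 0.96. Serping1, the inhibitor of complement C1, was at 4.23, 2.82 and 3.54 log2 CPM in control Tregs and at 2.23, 2.36 and 2.87 in Nr3c1 Foxp3-Cre Tregs. Control replicate 2 and Nr3c1 Foxp3-Cre replicate 3 crossed, and the log2 fold change was -1.05 (SE 0.36).

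Receptors of fibroblasts were near the lower end of the table. Pdgfra was at 1.37, 1.03 and 1.64 log2 CPM in control Tregs and at 0.74, -3.96 and 1.11 in Nr3c1 Foxp3-Cre Tregs, and Pdgfrb, the receptor of pericytes and many fibroblasts, was at 1.59, 0.86 and 1.83 log2 CPM in control Tregs and at 1.36, -3.96 and 0.72 in Nr3c1 Foxp3-Cre Tregs. The value in Nr3c1 Foxp3-Cre replicate 2 was the lowest of that library and shared by 11 genes. The log2 fold changes of -2.05 (SE 1.14) and -2.05 (SE 1.18) rest on this library, and without it they were -0.42 and -0.39. Without Nr3c1 Foxp3-Cre replicate 1 they were -2.77 and -3.04, and without Nr3c1 Foxp3-Cre replicate 3 they were -2.95 and -2.72. Acta2, the actin of smooth muscle and myofibroblasts, was at 3.02, 1.40 and 2.20 log2 CPM in control Tregs and at 1.70, -1.45 and -0.19 in Nr3c1 Foxp3-Cre Tregs. Its groups overlapped through Nr3c1 Foxp3-Cre replicate 1, and the log2 fold change was -2.19 (SE 0.75). Without that library it was -3.03, and without Nr3c1 Foxp3-Cre replicate 2, the lowest, it was -1.45.

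IGF binding proteins gave no genotype difference beyond the spread. Igfbp7 was at 5.05, 6.0 and 5.16 log2 CPM in control Tregs and at 5.68, 4.73 and 5.23 in Nr3c1 Foxp3-Cre Tregs, with a log2 fold change of -0.19 (SE 0.29). Igfbp4 ran from 3.38 to 4.12 in control Tregs and from 3.03 to 4.35 in Nr3c1 Foxp3-Cre Tregs, with a log2 fold change of -0.042 (SE 0.34). The plot of levels by library shows all 34 members.

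**Figure D1:**
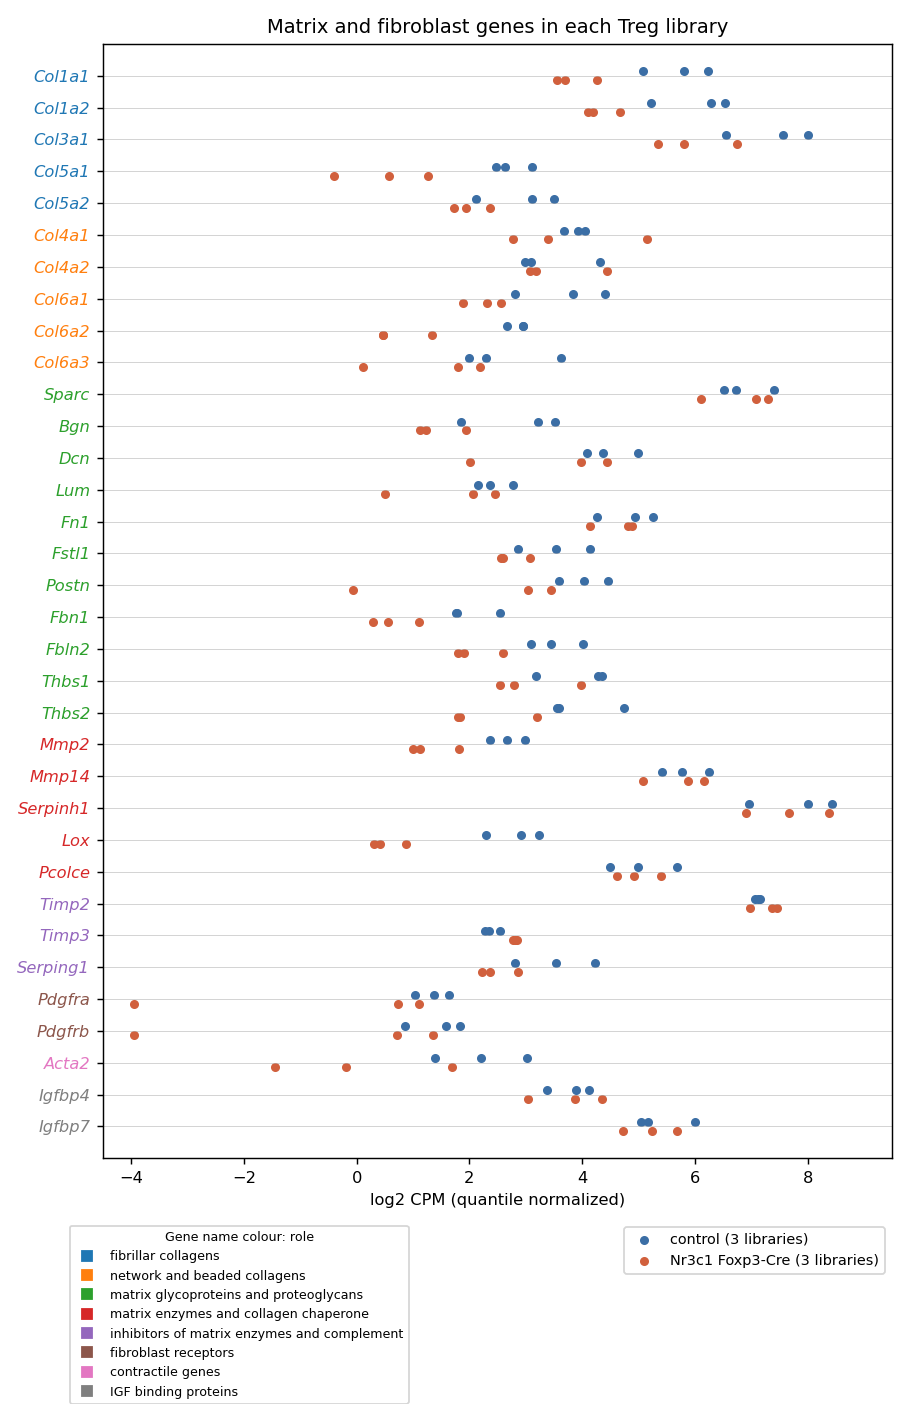
Level of each matrix and fibroblast gene (rows, coloured by role) in log2 CPM on the x axis, with 1 point per library for 3 control and 3 Nr3c1 Foxp3-Cre libraries. Col1a1, Col6a2 and Lox show separated groups, Serpinh1 and Sparc show mixed ones, and Pdgfra and Pdgfrb have a single library at -3.96.

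Over the 34 members, 31 had a lower and 3 a higher mean in Nr3c1 Foxp3-Cre Tregs, and the median log2 fold change was -1.16, against -0.00145 over all genes. The median of the members was -0.77 without control replicate 1, -1.46 without control replicate 2 and -0.85 on the log2(CPM + 1) scale. By limma, 0 members had an adjusted p under 0.05, where 0.0494% of all genes were called lower and 0.00823% higher. The lowest limma adjusted p was 0.12, for Col1a1 and Lox. Without control replicate 2, Col1a1 and Col1a2 were called, with limma adjusted p of 0.0171 and 0.0121. With sample quality weights Col6a2 and Lox were called as well, with limma adjusted p of 0.015 and 0.00713. Those weights were 7.47 for control replicate 3 and 0.52 to 0.86 for the other libraries. The share of all genes called was not taken for either setting. At an unadjusted p under 0.05, 17 members, or 50.0%, were lower and 0 higher, where the shares over all genes were 1.65% and 1.61%. The groups did not overlap for 11 members that were lower, or 32.4%, and for 1 that was higher, where the shares over all genes were 3.73% and 3.69%. The 11 were Col1a1, Col1a2, Col5a1, Col6a1, Col6a2, Postn, Fbn1, Fbln2, Thbs2, Mmp2 and Lox. Members were measured in the same libraries and are not replicates, so these counts carry no test. The summed CPM of the members overlapped between the groups, at 1612, 852 and 1181 in control Tregs and 906, 1109 and 635 in Nr3c1 Foxp3-Cre Tregs, and Serpinh1 alone reached 347 CPM.

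**Figure D2:**
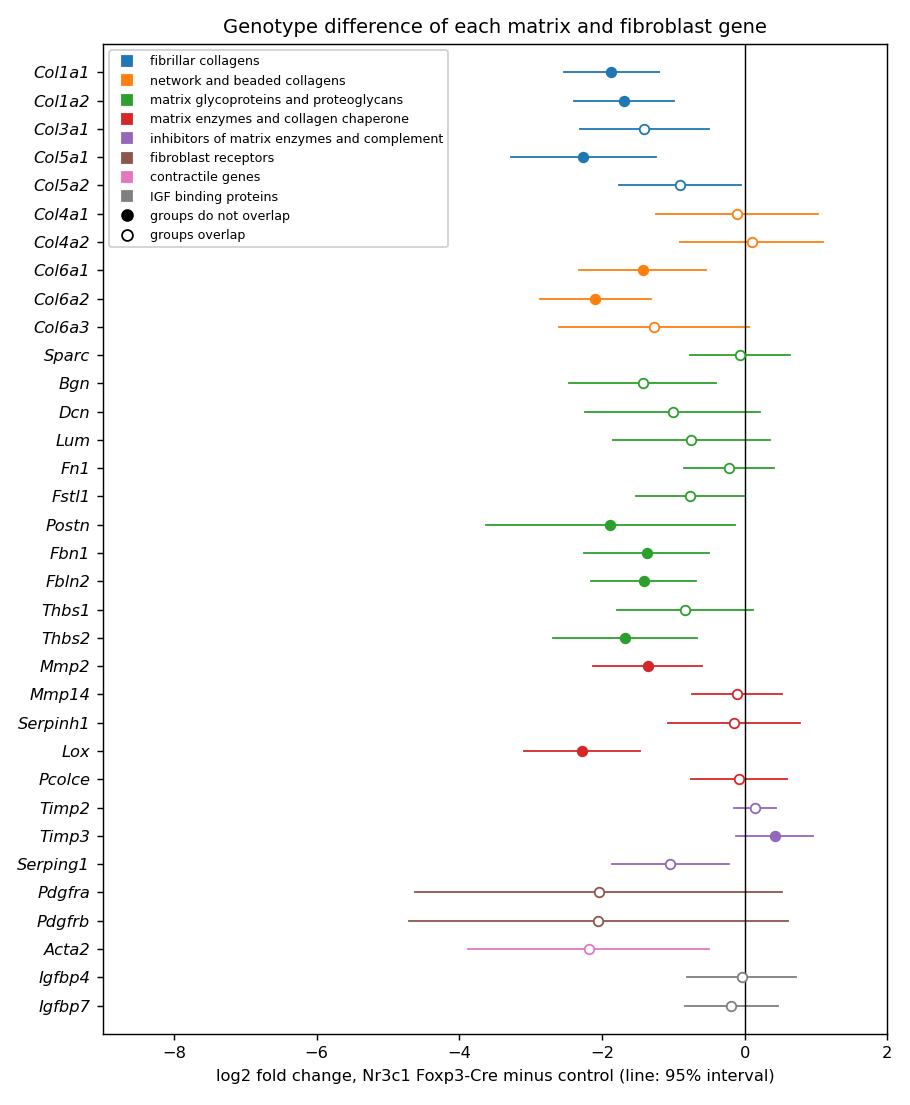
Log2 fold change of Nr3c1 Foxp3-Cre over control Tregs for each member (x axis), with limma's 95% interval as a line and filled points where the 3 libraries of each group did not overlap. Lox at -2.28 is lowest and Timp3 at 0.42 highest, and Pdgfra and Pdgfrb have the widest intervals.

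Members were next compared with the melanoma markers over the libraries. The melanoma marker mean was 8.81, 7.41 and 8.48 log2 CPM in control Tregs and 8.27, 8.75 and 7.46 in Nr3c1 Foxp3-Cre Tregs. These groups overlapped, and 7 of 10 markers were lower and 3 higher in Nr3c1 Foxp3-Cre Tregs, 0 of them past an unadjusted p of 0.05. Over the whole table, 6136 of 12153 genes were lower, with 1.65% lower and 1.61% higher past that p. Control replicate 2 and Nr3c1 Foxp3-Cre replicate 3 were low in these markers, as they were in Serpinh1.

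Correlations over the 6 libraries are given as descriptions, since the libraries share a normalization and differ in genotype, and they were also taken after each group's mean was subtracted. Serpinh1 had a Pearson r with the melanoma marker mean of 0.99 (Spearman rho 0.94), and 0.995 as deviations. Its level moved by 1.08 log2 units (SE 0.083) for each unit of the marker mean. Igfbp4, Mmp14, Pcolce and Sparc had r of 0.95, 0.94, 0.93 and 0.89 with the same mean. Without the 2 libraries farthest from the median, these were 0.83, 0.86, 0.94 and 0.66, and 0.998 for Serpinh1. None of these genes showed a genotype difference beyond its spread.

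Col1a1 and Lox followed the melanoma markers within each group while lying lower in Nr3c1 Foxp3-Cre Tregs. As raw values their r with the marker mean was 0.43 and 0.32, and as deviations from the group means it was 0.94 for both genes. Without the 2 libraries farthest from the median, the raw r was 0.51 and 0.45. As deviations, Col1a1 and Lox had like r with the other fibroblast genes (0.92 and 0.93) and with the macrophage markers (0.87 and 0.88). The difference between Col1a1 and Serpinh1 within a library was -2.20, -1.88 and -2.20 in control Tregs and -3.97, -4.13 and -3.34 in Nr3c1 Foxp3-Cre Tregs on the log2 scale. For Lox and Serpinh1 it was -5.21, -4.65 and -5.09 in control Tregs and -7.26, -7.50 and -6.59 in Nr3c1 Foxp3-Cre Tregs. Both differences were lower in each Nr3c1 Foxp3-Cre library than in each control library. For Col3a1 and Serpinh1 it was -0.43, -0.40 and -0.45 in control Tregs and -2.32, -1.64 and -1.10 in Nr3c1 Foxp3-Cre Tregs. The groups of this difference did not overlap, although those of Col3a1 itself did. Serpinh1 had a log2 fold change of only -0.15 (SE 0.41), so subtracting it keeps the lower values already described. These differences are therefore not separate evidence for them.

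**Figure D3:**
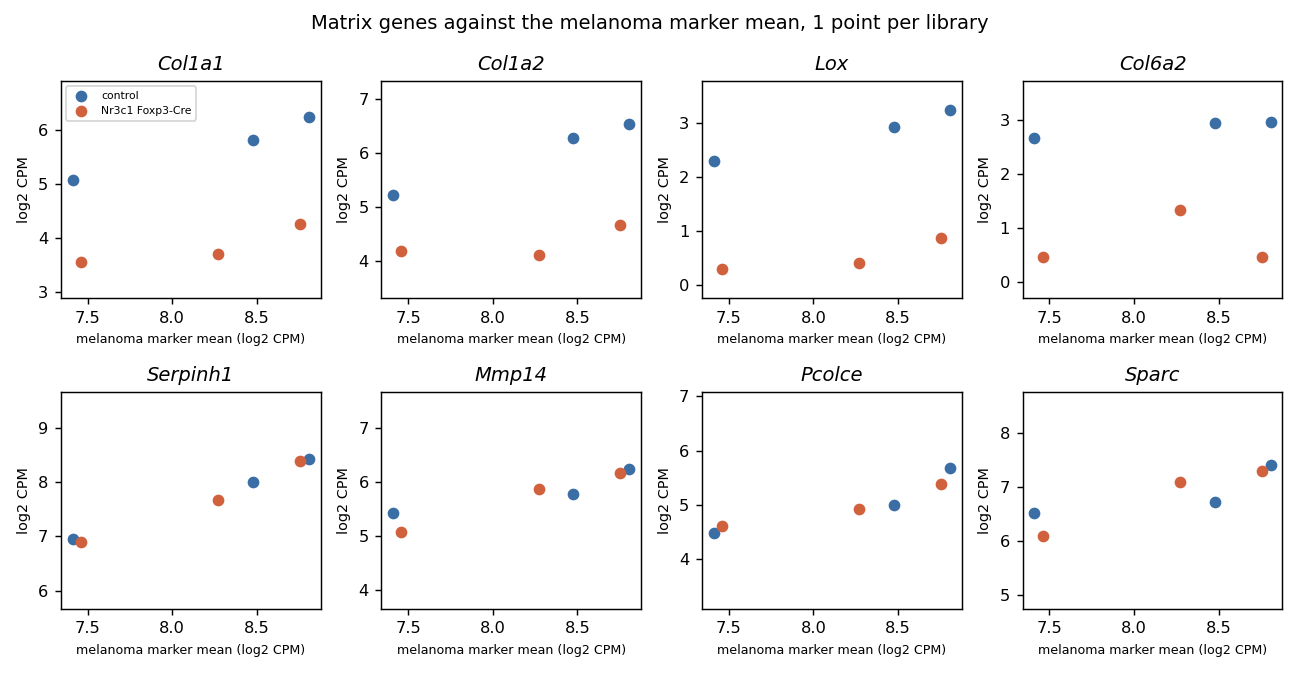
Level of 8 matrix genes (y axis, log2 CPM) against the melanoma marker mean (x axis, log2 CPM), with 1 point for each of 3 control and 3 Nr3c1 Foxp3-Cre libraries. Col1a1, Col1a2, Lox and Col6a2 in the top row have control points above Nr3c1 Foxp3-Cre points at like marker means, and in Serpinh1, Mmp14, Pcolce and Sparc in the bottom row the points of both groups are interleaved.

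A fit with the melanoma markers as a covariate (their mean in each library) was added after seeing the data. It called 4 members, all lower in Nr3c1 Foxp3-Cre Tregs, where 0.115% of all genes were called lower. Col1a1 had a log2 fold change of -1.82 (limma adjusted p = 0.000863) and Col1a2 one of -1.65 (limma adjusted p = 0.00403). Lox had -2.24 (limma adjusted p = 0.0138) and Col6a2 had -2.08 (limma adjusted p = 0.047). The 4 log2 fold changes stayed close to those without the covariate, while the standard error of Col1a1 went from 0.29 to 0.16. The log2 fold change of Serpinh1 was -0.071 in this fit.

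Members were then compared with the mean of the 15 other fibroblast genes, to see which matrix genes varied together over the libraries. The median r over the 34 members was 0.60. Col3a1 had the highest, at 0.98, followed by Col5a2 at 0.95, Fstl1 at 0.95, Thbs2 at 0.92 and Mmp2 at 0.89. As deviations from the group means these were 0.995, 0.92, 0.91, 0.90 and 0.98. Without the 2 libraries farthest from the median they were 0.93, 0.88, 0.95, 0.74 and 0.69.

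Igfbp7 had the lowest r with the other fibroblast genes, at -0.59, and Timp3 was at -0.42 and Col4a1 at -0.17. Pdgfra was at -0.085 and Pdgfrb also at -0.085. As deviations Igfbp7 was at -0.96, and Timp3, Col4a1, Pdgfra and Pdgfrb were at 0.57, -0.27, -0.63 and -0.61. The mean of the other fibroblast genes itself had an r of 0.99 with the macrophage marker mean and 0.65 with the melanoma marker mean. As means over these 6 libraries, the other fibroblast genes thus had a higher r with the macrophage than with the melanoma markers. Both the fibroblast and the macrophage mean include a gene with a very low value in a single library. Pdpn was at -5.41 log2 CPM in Nr3c1 Foxp3-Cre replicate 1. Mpeg1, a macrophage marker, was at -3.96 in Nr3c1 Foxp3-Cre replicate 2, the lowest value of that library. The r without these genes was not taken, and each r with these means carries this limit. The part of fibroblast, macrophage or melanoma RNA in a member's level was not tested.

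**Figure D4:**
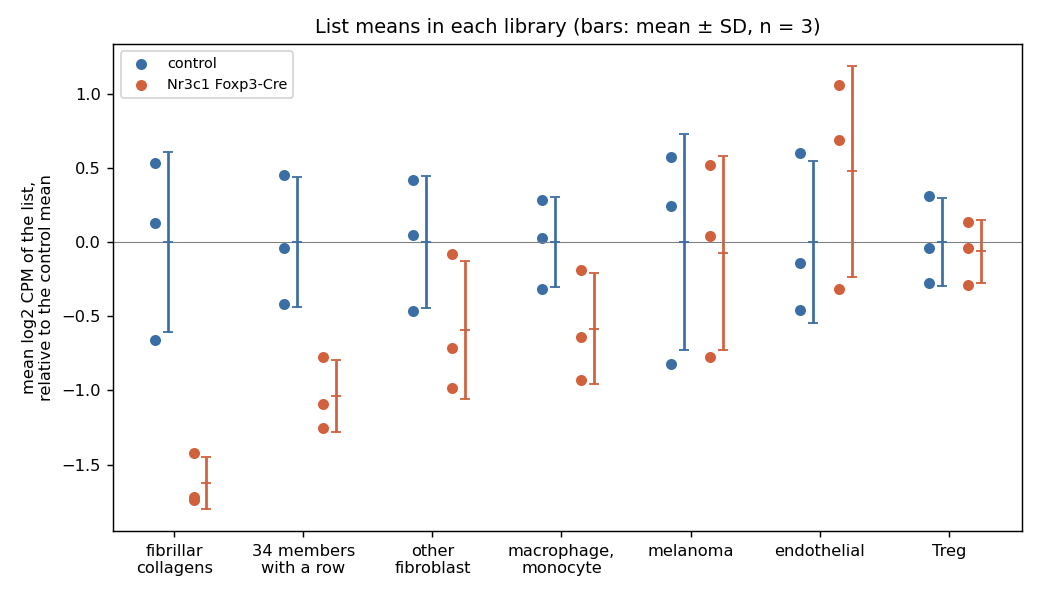
Mean log2 CPM of each gene list relative to its control mean (y axis), with 1 point per library and bars for the mean and SD of 3 libraries. The fibrillar collagens and the 34 members have all Nr3c1 Foxp3-Cre points below the control points, and the other fibroblast, macrophage, melanoma, endothelial and Treg lists overlap.

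Among the 15 other fibroblast genes with a row, 11 were lower and 4 higher in Nr3c1 Foxp3-Cre Tregs, with a median log2 fold change of -0.35. At an unadjusted p under 0.05, 5 were lower, or 33.3%, and 0 higher, where the shares over all genes were 1.65% and 1.61%. The same 5, Ccdc80, Cpxm1, Rcn3, C1ra and Pdpn, had groups without overlap, where the share of all genes that were lower was 3.73%. These counts carry no test either, since the genes are not replicates. Pdpn, podoplanin, was at 0.71, 0.76 and 1.03 log2 CPM in control Tregs and at -5.41, -0.35 and -2.53 in Nr3c1 Foxp3-Cre Tregs, with the lowest value in Nr3c1 Foxp3-Cre replicate 1. None passed an adjusted p of 0.05 by limma. Of 10 pericyte and smooth muscle genes 4 had a row, and Cspg4, Myh11 and Des had none. Myl9, a light chain of smooth muscle myosin, was the only gene of the 4 that was lower without overlap, against 3.73% of all genes. Its log2 fold change was -1.01 (SE 0.41). The groups overlapped for Rgs5, Mcam and Cald1, with log2 fold changes of -1.64 (SE 1.15), 0.034 (SE 0.37) and -0.33 (SE 0.41). Rgs5 was at 1.59, -0.44 and -3.96 log2 CPM in Nr3c1 Foxp3-Cre Tregs.

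Of 53 other matrix genes, among them laminins, collagen hydroxylases, further proteases and integrins, 38 had a row. In Nr3c1 Foxp3-Cre Tregs 23 were lower and 15 higher, with a median log2 fold change of -0.076. By limma 0 passed an adjusted p of 0.05. At an unadjusted p under 0.05, 6 were lower, or 15.8%, and 0 higher, where the shares over all genes were 1.65% and 1.61%. The groups did not overlap for 6, all lower, or 15.8%, where the share over all genes was 3.73%. These genes were measured in the same libraries and are not replicates, so the counts carry no test. Col8a1, a short-chain collagen, was at 1.78, 0.19 and 1.53 log2 CPM in control Tregs and at -0.82, -1.26 and -1.16 in Nr3c1 Foxp3-Cre Tregs, with a log2 fold change of -2.25 (SE 0.53). Mmp3, stromelysin, was at 2.76, 2.49 and 2.92 log2 CPM in control Tregs and at 0.61, -0.23 and 2.42 in Nr3c1 Foxp3-Cre Tregs, and Adamts2, which trims procollagen, was at 2.42, 2.11 and 1.99 log2 CPM in control Tregs and at 0.97, 0.023 and 1.58 in Nr3c1 Foxp3-Cre Tregs. Both had groups without overlap. The enzymes that hydroxylate collagen in the endoplasmic reticulum had groups that overlapped, such as P4ha1 at a log2 fold change of -0.0098 (SE 0.14) and Plod2 at -0.026 (SE 0.35).

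Of genes that are not members, the 10 whose pattern over the 6 libraries was most like the mean of the members were Hhipl1, Cnep1r1, Psmb4, Stk3, Arhgap12, Kxd1, Ogfr, Ublcp1, Pard6g and 2210408I21Rik, with r from 0.99 down to 0.95. They were taken from genes with a mean of at least 1 log2 CPM. Picked for the highest r over only 6 libraries, they have a high r by selection, which carries no test. A like pattern was not a like size. The log2 fold change was -0.96 (SE 0.34) for Hhipl1, and the others ran from -0.39 for Pard6g to -0.071 for Psmb4. Hhipl1 was at 2.17, 1.60 and 1.86 log2 CPM in control Tregs and at 1.06, 0.68 and 0.99 in Nr3c1 Foxp3-Cre Tregs. The mean of the members was 4.43, 3.56 and 3.93 log2 CPM in control Tregs and 3.20, 2.72 and 2.88 in Nr3c1 Foxp3-Cre Tregs, without overlap between the groups.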

How the data were processed

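Gene expression was measured by RNA-Seq in 3 control and 3 Nr3c1 Foxp3-Cre Treg libraries, grouped by the labelled genotype. Per the study's methods, the authors used Cutadapt for trimming, STAR for alignment (mm10) and RSEM with GENCODE M21 for gene counts, then filtered genes on CPM and quantile normalized the counts before limma. The deposited values are log2 CPM for 12153 genes, and 0 columns belonged to other samples. On a linear scale each library summed to 999633 or 999634 CPM, so depth is unknown, no counting interval is given, and quantile normalization can change ratios between libraries.

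The whole table was fitted by limma (version 3.58.1, R version 4.3.3; lmFit, eBayes with a mean-variance trend in place of the authors' voom weights, which need counts), two-sided, with a single genotype term; p-values were adjusted over the table by Benjamini-Hochberg, with a threshold of 0.05. Fold changes are differences of log2 CPM, and intervals are 95% intervals. The fit was tested on simulated data. List means are means of log2 CPM per library. Lengths are of the longest basic coding transcript of GENCODE M21, and upstream windows are from RefSeq.

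Members, marker lists and tests were chosen with earlier results of these data known. Values in every library are given for members with an unadjusted p under 0.05 or groups without overlap, the 8 with the highest mean, and the 5 with the highest and the 5 with the lowest r with other fibroblast genes; the 10 most similar genes that are not members are named. Alternatives were no trend, a floor at log2 0, log2(CPM + 1), a minimum mean of 1, sample quality weights, median centring, a replicate block and leaving out each library. The melanoma marker covariate, and melanoma markers in place of fibroblast genes, were chosen after seeing the data.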

Additional observations from a re-analysis of the deposited data

How the results depend on the processing

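Under the settings tried for each member, 25 of 34 kept the sign of their log2 fold change and 9 did not, all 9 with a difference within their spread. With each library left out in turn, the log2 fold change ran from -0.80 to 0.39 for Col4a1, -0.34 to 0.53 for Col4a2, -0.29 to 0.30 for Sparc, -0.49 to 0.022 for Fn1, -0.33 to 0.20 for Mmp14, -0.57 to 0.23 for Serpinh1, -0.36 to 0.24 for Pcolce, -0.34 to 0.32 for Igfbp4 and -0.42 to 0.11 for Igfbp7. Without a replicate, the number of members with an adjusted p under 0.05 ran from 0 to 2 and the number without overlap from 12 to 21. The highest of both came without control replicate 2, where Col1a1 and Col1a2 were called. At an unadjusted p under 0.05 the number ran from 12, without control replicate 1, to 18. Groups with fewer libraries overlap less often in any gene. Shares over all genes were not taken with a library left out or with sample quality weights. These counts are therefore not read as a result about the members. With sample quality weights, which gave control replicate 3 a weight of 7.47 and the other libraries 0.52 to 0.86, 4 members were called (Col1a1, Col1a2, Col6a2 and Lox), and the log2 fold change was 0.024 for Sparc, 0.21 for Fn1 and 0.045 for Igfbp7. With melanoma markers as a covariate 4 members were called, and Igfbp4 was at 0.0098. The cause of these changes was not tested. The median r with the other fibroblast genes was 0.60 with all libraries, 0.48 as deviations from the group means, 0.49 without the 2 libraries farthest from the median, and 0.35 with melanoma markers instead.

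With the replicate number as a replicate block, 0 members had an adjusted p under 0.05 (the lowest, 0.648, was shared by Col1a1, Col5a1 and Col6a2). At an unadjusted p under 0.05 there were 17 with and 17 without the block. Col5a2 and Fstl1 passed only without it, and Col6a3 and Thbs1 only with it. Without the block, 1.65% of all genes were lower and 1.61% higher at that threshold. The share over all genes was not taken with the block, so its count is not read as a result about the members. Deviations of libraries with the same number had r of -0.12, -0.33 and -0.025 across genes, so the numbers were not taken as pairs. Depth is unknown, and 3 libraries a group limit the precision.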

Other observations

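Endothelial genes did not share the lower values of the collagens. Of 12 markers 6 had a row, Cdh5, Tie1 and Emcn had none, and 5 of the 6 were higher in Nr3c1 Foxp3-Cre Tregs. Pecam1, an adhesion molecule that leukocytes also carry, was at 5.48, 5.68 and 5.56 log2 CPM in control Tregs and at 5.97, 5.85 and 5.74 in Nr3c1 Foxp3-Cre Tregs, without overlap and with a log2 fold change of 0.28 (SE 0.12). Flt1, a receptor of vascular endothelial growth factor, was at 1.24, 0.66 and 0.59 log2 CPM in control Tregs and at 2.96, 2.38 and 1.01 in Nr3c1 Foxp3-Cre Tregs. Its groups overlapped, with a log2 fold change of 1.29 (SE 0.50). Plvap, of fenestrated endothelium, was at 4.24, 2.43 and 2.99 log2 CPM in control Tregs and at 4.75, 4.10 and 2.88 in Nr3c1 Foxp3-Cre Tregs, also with overlap. By limma 0 of these genes had an adjusted p under 0.05, and 2, Pecam1 and Flt1, had an unadjusted p under 0.05. Over all genes, 1.61% were higher at that unadjusted threshold and 3.69% were higher without overlap. The mean of the 6 was 3.33, 2.27 and 2.59 log2 CPM in control Tregs and 3.79, 3.42 and 2.42 in Nr3c1 Foxp3-Cre Tregs. Its r over the 6 libraries was -0.16 with the mean of the fibrillar collagens, and 0.60 as deviations from the group means.

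Of 6 keratinocyte genes Krt10 and Perp had a row, with groups that overlapped. Among the 8 Treg markers Ccr8, a chemokine receptor of tumor Tregs, was at 8.79, 9.29 and 8.96 log2 CPM in control Tregs and at 8.58, 8.29 and 8.58 in Nr3c1 Foxp3-Cre Tregs. It was the only Treg marker without overlap, where 3.73% of all genes were lower without overlap. Its log2 fold change was -0.53 (SE 0.14, limma adjusted p = 1.0), and Foxp3 had one of 0.053 (SE 0.32).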
